A study of Mus musculus with 4 samples.

Results

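The genes described here are 3 early growth response factors (Egr1, Egr2 and Egr3), the orphan nuclear receptor Nr4a2, and the corepressors Nab1 and Nab2. They were chosen by symbol, with no threshold on their values but with earlier results of these data known. All 6 were found among the 12021 rows of the deposited count table. Natural killer T (NKT) cells are T lymphocytes that respond to lipids presented by CD1d, and here they had been sorted as GFP-high cells from C57BL/6 mice aged 10 to 12 weeks with a Va14 receptor transgene (Va14 Tg) and GFP in 1 copy of Cxcr6 (cxcr6gfp/+). Both groups carry these alleles, and the sort rests on GFP from the Cxcr6 locus. One group of 2 libraries came from cells stimulated on plates coated with mCD1d-PBS57 tetramers, and the other 2 libraries from cells kept resting. The labels name liver as the tissue, the sort is described from livers or spleens, the extraction text names islets, and the sources used here do not give the time in culture.

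Egr proteins are zinc finger transcription factors whose genes are switched on within minutes to hours of T cell receptor signalling, through ERK with SRF and ETS factors and through calcium. Egr2 is known as a factor that NKT cells need to develop, and Egr2 and Egr3 are known for restraining T cell responses. Nr4a receptors are early genes of the same kind, driven largely by calcium through NFAT and MEF2 factors. Nab proteins bind Egr proteins and repress their targets, in part by recruiting the remodeller CHD4 of the NuRD complex, and Nab2 is known as a target of Egr factors in other cells.

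Libraries are called by the numbers 4 and 5 of their columns, which are not the replicate numbers of the sample titles. They held 4168438 to 5495521 counts each. The labels do not tie the libraries of a group to separate mice, and the p-values therefore reflect only how these libraries varied, which may be technical. All 8 T and NKT cell markers were present, at summed levels of 3500 and 3313 CPM at rest and 2486 and 3422 CPM after stimulation (CPM, counts scaled to library size with factors from the trimmed mean of M values, TMM). On average over the libraries Il2rb and Cxcr6 were the most abundant of them. Of these 8 markers, 2 were called lower after stimulation. Over all genes tested, 14.3% were called higher and 12.1% lower, the background for the marker counts given here. The NK receptor gene Klrb1c, named after its values were seen, fell from 114 and 174 CPM to 2.86 and 13.6 CPM (log2 fold change -4.13 ± 0.52, edgeR adjusted p = 2.91e-06). Cxcr6, the locus that carries the GFP of the sort, fell from 1617 and 1102 CPM to 414 and 718 CPM (-1.26 ± 0.40, adjusted p = 0.0190), a call lost without resting library 4 or tetramer library 4. All 6 pancreatic islet markers were present too, with most counts from Ins2 and Ins1. Their sum was 267 CPM in resting library 4, 980 in resting library 5, 237 in tetramer library 4 and 429 in tetramer library 5. Of markers of other liver or blood cells, 4 of 6 B cell genes, 6 of 11 myeloid genes, 3 of 7 hepatocyte genes and 1 of 4 NK cell genes were analysed here. The myeloid genes summed to 44.3 and 49.8 CPM at rest against 11.7 and 15.6 CPM after stimulation, and 3 of the 5 tested were called lower. The hepatocyte genes summed to 38.5 and 59.0 CPM at rest against 13.7 and 18.2 CPM after stimulation, with 2 of 3 called lower. Without tetramer library 4 these counts were 0 for both lists, without tetramer library 5 they were 1 for both, and without resting library 5 the hepatocyte count was 1. The B cell genes summed to 21.3 and 29.7 CPM at rest against 13.3 and 16.6 CPM after stimulation, with 1 of 3 tested called higher and 1 lower, calls lost when either tetramer library was left out. Eomes, the NK cell gene, was at 7.67 and 14.7 CPM at rest and 4.30 and 8.29 CPM after stimulation. The summed myeloid, hepatocyte and B cell transcripts were thus lower in both tetramer libraries than in either resting library. So was the endothelial marker Pecam1, described below. The part of all these transcripts in the results for the 6 genes was not tested.

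Of the 6 genes, 4 rose after stimulation, 1 fell and 1 passed no threshold. All 3 Egr genes and Nr4a2 were higher in both tetramer libraries than in either resting library, with fitted folds of 52.0 for Egr3, 19.4 for Egr2, 10.1 for Egr1 and 5.87 for Nr4a2. Nab1 was lower, at 0.462 of its resting level, in a call that single libraries decided. Nab2 was not called, and its groups overlapped. Among all 11312 genes tested by edgeR's quasi-likelihood test (adjusted p below 0.05), 14.3% were called higher and 12.1% lower (26.4% either way), which is the background for these counts. Both tetramer libraries lay above both resting libraries for 31.6% of all genes and below them for 33.7%. The median log2 fold change was 2.94 over the 6 genes and -0.06 over all genes. Because the 6 genes were chosen with earlier results known, their contrast with all genes is a description only.

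**Figure D1:**
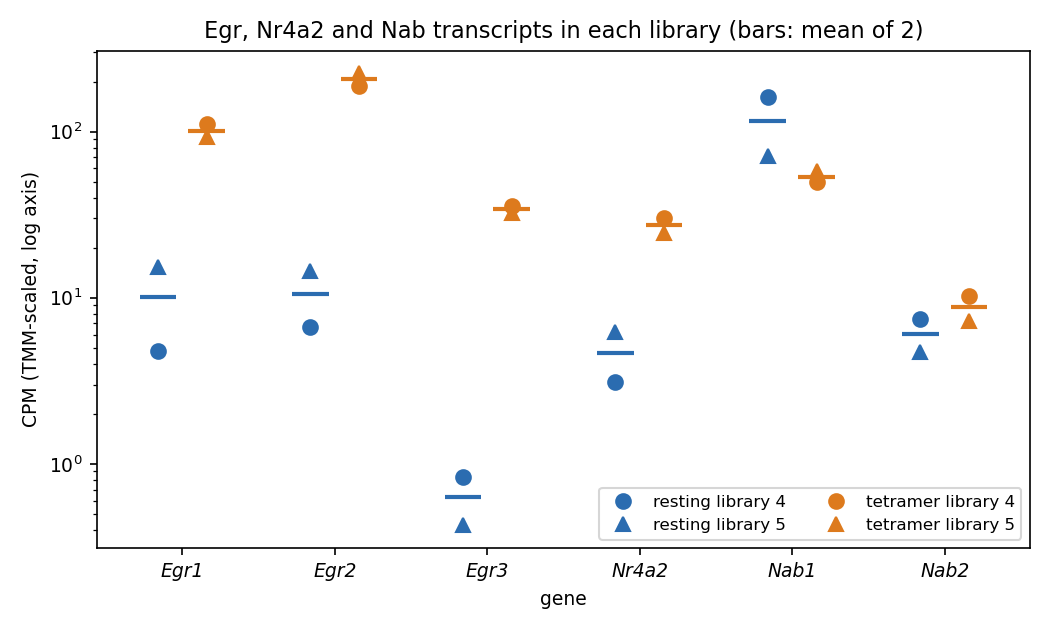
CPM of each gene (x axis) in each library on a log axis, with circles for library 4, triangles for library 5, blue for resting, orange for tetramer and bars for the mean of 2. The orange points of Egr1, Egr2, Egr3 and Nr4a2 lie above both blue points, those of Nab1 below them, while for Nab2 1 orange point lies between the blue points and 1 above both.

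Sequence before the start site is shown for Egr2 and Nr4a2 because these genes rose together and the stretches hold letters known as sites of factors downstream of ERK, calcium and cAMP. RefSeq entries (GRCm38.p6, a later build than the mm9 named for the counts) matched 4 of the 6 genes: Egr2, Nr4a2, Nab1 and Nab2. The 250 bases before each start site were searched on both strands. Capitals mark the CArG box, a site of serum response factor, and TGACG or its reverse complement CGTCA, the core of the CRE site of CREB and ATF factors. The Egr2 stretch is chr10:67537619-67537868, plus strand, and the Nr4a2 stretch is chr2:57124004-57124253, minus strand.
Egr2: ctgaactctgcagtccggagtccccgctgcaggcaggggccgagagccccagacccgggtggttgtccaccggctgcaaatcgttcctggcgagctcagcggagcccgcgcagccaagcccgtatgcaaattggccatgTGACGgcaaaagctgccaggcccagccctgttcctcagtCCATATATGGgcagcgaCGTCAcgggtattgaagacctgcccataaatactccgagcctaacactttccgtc
Nr4a2: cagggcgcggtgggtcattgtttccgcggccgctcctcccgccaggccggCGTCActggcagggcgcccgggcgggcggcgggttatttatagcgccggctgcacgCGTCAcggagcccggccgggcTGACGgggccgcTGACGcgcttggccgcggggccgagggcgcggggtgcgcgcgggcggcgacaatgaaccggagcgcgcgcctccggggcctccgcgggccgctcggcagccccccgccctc

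The Egr2 stretch holds 1 CArG box, which begins 72 bases before the start site, and CRE cores that begin 111 and 55 bases before it. A CArG box is in 1.47% of all 32851 promoter windows of this length, and a CRE core in 17.8%. Since the stretches are shown because they hold these letters, these shares are a description only. The part of such sites in the rises of Egr2 and Nr4a2 was not tested. RefSeq lists 5 Egr2 start sites, some a few bases apart, and 4 of their windows hold a CArG box. Windows that overlap share the same box, so these are not 4 separate boxes. The window of the most upstream start site (67535249 to 67535548) holds 0 CArG boxes and 0 CRE cores. The next window (67537316 to 67537615) holds 1 CArG box and 0 CRE cores. The stretch shown lies downstream of both, inside the gene. The Nr4a2 stretch holds 4 CRE cores and 0 CArG boxes. CRE cores were not limited to the genes that rose. The window of Nab1, the gene called lower, holds 1, which begins 123 bases before its start site. The Nab2 window holds 0. The Nr4a2 stretch also holds 1 EGR site (GCGNGGGCG), which begins 74 bases before the start site and is not in capitals. EGR sites are in 4.70% of all windows. The Nab1 window holds 3 of them, the most of the genes matched, and the Nab2 window 0, in each case a match of letters only. The 3 Nab1 sites begin 141, 109 and 38 bases before the start site, and the first is shown with its neighbouring bases from chr1:52500571-52500599 (minus strand), read in the direction of Nab1, with the EGR site in capitals as its reverse complement.
Nab1: gccccgcggcCGCCCACGCcgggatctgc

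AGGTCA, the core that Nr4a and other nuclear receptors bind, is in 14.0% of all windows and was not among the letters of the windows of these 4 genes. TATAAA, in 12.4% of all windows, was found in the Nr4a2 window only, on the opposite strand, among the windows of these 4 genes. The NFAT core GGAAA, in 55.6% of all windows, was found in the Egr2 and Nr4a2 windows.

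In the GENCODE M21 annotation of GRCm38, Egr2 lies on chromosome 10 from 67535475 to 67542188 and Egr3 on chromosome 14 from 70077203 to 70082614, both on the plus strand. Nr4a2 spans 57106830 to 57124003 of chromosome 2, Nab1 52457294 to 52500679 of chromosome 1 and Nab2 127660918 to 127668568 of chromosome 10, each on the minus strand. The RefSeq window searched for Nab2 (127666654 to 127666953) lies inside its GENCODE span. The bases before the GENCODE start of Nab2 were therefore not searched. By these GENCODE spans Nab2 overlaps 3 genes of the opposite strand, Stat6 by 40 bases, Gm16229 by 1646 and Nemp1 by 1668. Egr2, Egr3, Nr4a2 and Nab1 overlap none. Overlaps were not computed for the shorter reach of Nab2 from its RefSeq start site. The sources used here do not say whether the counting used strand, so the Nab2 value is uncertain to that extent.

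Pairs of values are given for library 4 and then library 5. Egr2, the NKT cell developmental factor, had 32 and 68 counts at rest and 917 and 1108 counts after stimulation. On the CPM scale these are 6.63 and 14.5 at rest and 188 and 224 after stimulation. The lower tetramer library stood 12.9 times above the higher resting library. The means were 10.6 ± 5.59 and 206 ± 25.8 CPM (SD, n = 2 each), and the log2 fold change was 4.28 ± 0.45 (SE), with a 95% interval of 3.36 to 5.20 and an edgeR adjusted p of 1.72e-07. It was the 57th largest rise of all 11312 genes. Without resting library 5 the log2 fold change was 4.97.

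Egr3, the partner of Egr2 in restraining T cell responses, had 4 and 2 counts at rest and 175 and 160 counts after stimulation. The tetramer libraries, at 35.8 and 32.4 CPM, were closely matched, and both resting libraries were below 1 CPM, at 0.829 and 0.427. The log2 fold change was 5.70 ± 0.68 (edgeR adjusted p = 1.09e-06), the 13th largest rise. Since the resting value rests on 6 counts in all, the ratio of scaled counts is also given with its exact (Clopper-Pearson) 95% interval, 54.0 (24.6 to 148). That interval covers counting error of the pooled reads only and leaves out variation between libraries. Amplified reads carry no molecular identifiers and may repeat a molecule, so it may be too narrow even for that error.

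Egr1, the family member best known as an immediate early gene, had 23 and 72 counts at rest and 540 and 456 counts after stimulation. The corresponding CPM values were 4.76 and 15.4 at rest and 110 and 92.2 after stimulation. The resting libraries differed more than the tetramer libraries did, yet the groups lay apart, the closest pair by 6.00 times. The log2 fold change was 3.33 ± 0.49 (95% interval 2.33 to 4.32, edgeR adjusted p = 1.73e-05). It was 2.73 without resting library 4 and 4.43 without resting library 5.

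Nr4a2, the Nr4a receptor tested here, had 15 and 29 counts at rest and 148 and 121 counts after stimulation. Its CPM values were 3.11 and 6.20 at rest and 30.3 and 24.5 after stimulation, with groups apart by at least 3.95 times between single libraries. The log2 fold change was 2.55 ± 0.55 (95% interval 1.42 to 3.68, edgeR adjusted p = 0.00131), and 3.15 without resting library 5. Its relative Nr4a1, a marker of receptor signal strength, had 2 and 8 counts at rest, 15 in tetramer library 4 and 2 in tetramer library 5. These counts were too low for the filter, and the groups overlapped. The scaled ratio of Nr4a1 was 1.64, with a counting interval of 0.711 to 4.02. Egr4, Wt1 and Nr4a3 were not analysed here.

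Egr1, Egr2 and Nr4a2 were each higher in resting library 5 than in resting library 4, while Egr3 was lower there by 2 counts. Other transcripts shared this order. The islet markers summed to 980 CPM in resting library 5 against 267 in resting library 4, and the heat shock gene Hspa1a had 22.2 against 5.18 CPM. In the tetramer libraries Hspa1a was at 2.66 and 4.25 CPM. The part of these transcripts in the resting Egr and Nr4a2 levels was not tested. The list of 10 handling and heat shock genes had 5 of 9 tested members higher and 1 lower, against 14.3% and 12.1% of all genes. The lower gene was Hspa1a, named after its values were seen. Hsp90aa1 (2.47 ± 0.40), Hspe1 (2.25 ± 0.39) and Hspa8 (2.23 ± 0.39 on the log2 scale) led the rises by edgeR's test. The call of Hspa1a was lost by limma-voom and without resting library 5, tetramer library 4 or tetramer library 5. The number of these genes that fell was 2 without resting library 4 and 3 with scaling to library totals.

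Nab1, a corepressor of Egr factors, had 775 and 335 counts at rest and 242 and 285 counts after stimulation. The CPM values were 161 and 71.6 at rest and 49.5 and 57.6 after stimulation. Resting library 4 stood far above the other 3, and the higher tetramer library was at 0.805 of resting library 5. The log2 fold change of -1.11 ± 0.40 (95% interval -1.94 to -0.29) had an edgeR adjusted p of 0.0410. The value was -0.40 without resting library 4 (adjusted p = 0.556), -0.99 without tetramer library 4 (0.286) and -1.22 without tetramer library 5 (0.115). It was called again without resting library 5, at -1.56 (0.00377). DESeq2 (-1.09, adjusted p = 0.0572) and limma-voom (-1.005, adjusted p = 0.0745) did not call it.

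Pecam1, the 1 endothelial marker analysed of 5 listed, had the same order of libraries among resting samples as Nab1, at 75.0 and 28.8 CPM at rest and 10.2 and 15.8 CPM after stimulation. Pecam1 is also found on leukocytes. Its part in the fall of Nab1 was not tested. In bulk samples, fewer cells of a type and less RNA per cell cannot be told apart.

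Nab2, its paralog, had 36 and 22 counts at rest and 50 and 36 counts after stimulation. The CPM values of 7.46 and 4.70 at rest and 10.2 and 7.28 after stimulation overlapped, since tetramer library 5 was slightly below resting library 4. The log2 fold change was 0.52 ± 0.61 (95% interval -0.72 to 1.76, edgeR adjusted p = 0.552). In fold terms the interval ran from 0.609 to 3.39. Of its neighbours on the opposite strand, Stat6 was at -0.56 ± 0.38 (adjusted p = 0.285), and Nemp1, under its older symbol Tmem194, had 152 and 207 counts at rest and 44 and 47 after stimulation. The fall of Tmem194 (-2.03 ± 0.48, edgeR adjusted p = 0.00315) was not called without tetramer library 4 (adjusted p = 0.0573), and its share in the Nab2 counts was not tested.

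**Figure D2:**
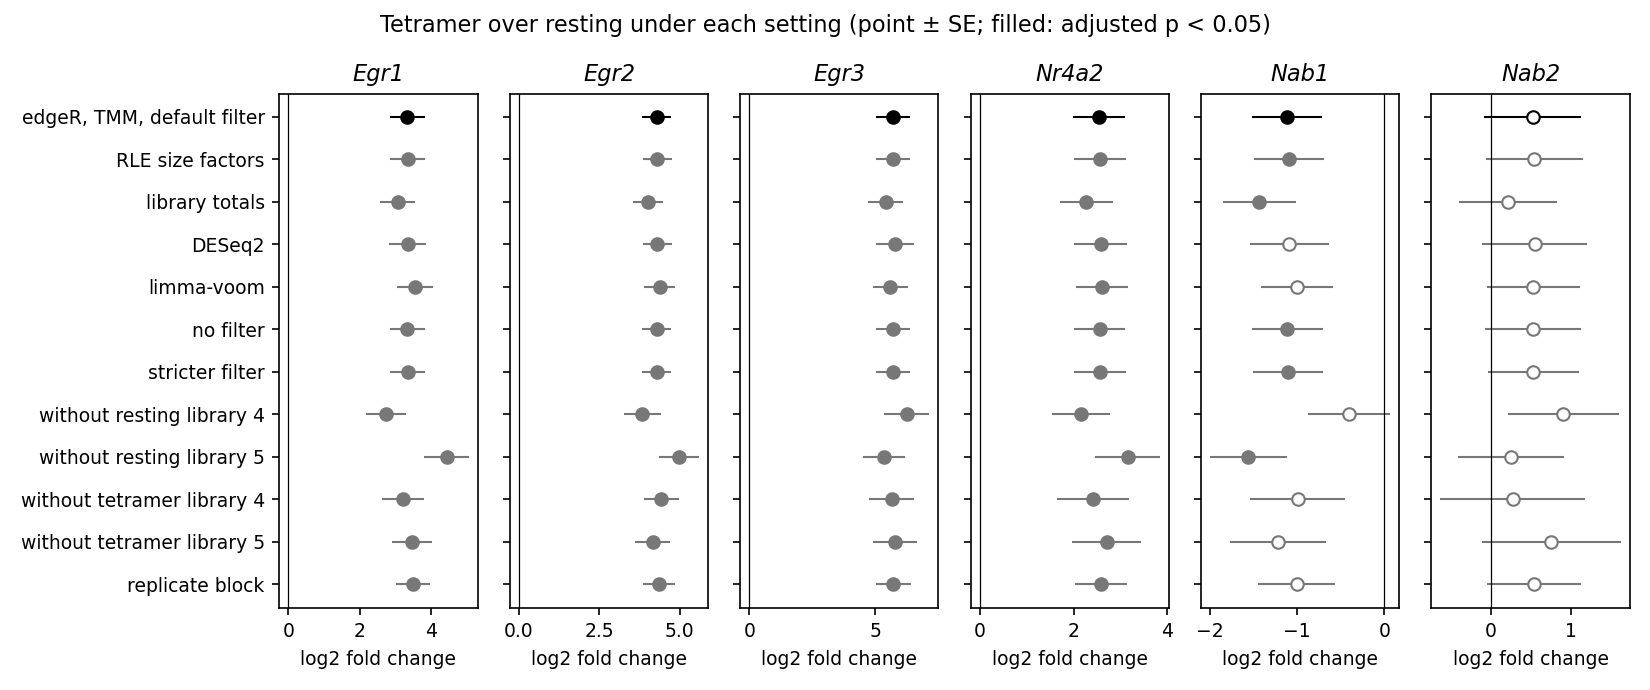
Log2 fold change (x axis, tetramer over resting) ± SE of each gene under each setting, with filled points where the adjusted p is below 0.05 and the first row in black as the main result. Egr1, Egr2, Egr3 and Nr4a2 are filled in every row, Nab1 in 6 of 12 and Nab2 in 0.

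Ratios of counts within a library need no scaling between libraries. Gene length cancels when a ratio of single genes is compared between groups. It does not cancel for summed genes whose mix changes, as in the Egr and Nab sums. Summed over the family, the 3 Egr genes had 59 and 142 counts at rest and 1632 and 1724 counts after stimulation. The 2 Nab genes together had 811 and 357 counts at rest and 292 and 321 after stimulation. The Egr to Nab ratio was thus 0.0727 and 0.398 at rest against 5.59 and 5.37 after stimulation, a 32.2-fold difference of the geometric means. The exact two-sided permutation test over the libraries gave p = 0.333 here and for each of the other 3 ratios, the smallest value that the 6 regroupings of 2 against 2 allow. With single libraries left out, the log2 difference of this ratio ranged from 3.78 (without resting library 4) to 6.23 (without resting library 5).

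The share of each corepressor was compared in the same way, with Wilson intervals that cover counting error only. Nab2 made up 4.44% (Wilson 95% interval 3.22 to 6.08) and 6.16% (4.10 to 9.15) of the Nab counts in resting libraries 4 and 5. After stimulation it made up 17.1% (13.2 to 21.9) and 11.2% (8.21 to 15.1) in tetramer libraries 4 and 5. The Nab2 to Nab1 ratio was 2.92 times higher in the geometric mean after stimulation, with groups apart but a permutation test that could not pass the threshold. The intervals of resting library 5 and tetramer library 5 did overlap.

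Among the Egr genes, the Egr2 to Egr1 ratio was 1.39 and 0.944 at rest and 1.70 and 2.43 after stimulation, a 1.77-fold difference with groups apart. The Egr3 to Egr2 ratio was 0.125 and 0.0294 at rest and 0.191 and 0.144 after stimulation. Its 2.74-fold difference came mostly from the 2 counts of Egr3 in resting library 5, since the log2 difference of 1.45 was 0.41 without that library and 2.50 without resting library 4. For Egr3 as a share of the Egr3 and Egr2 counts, the interval of resting library 4 (4.41 to 25.3%) held the values of both tetramer libraries.

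**Figure D3:**
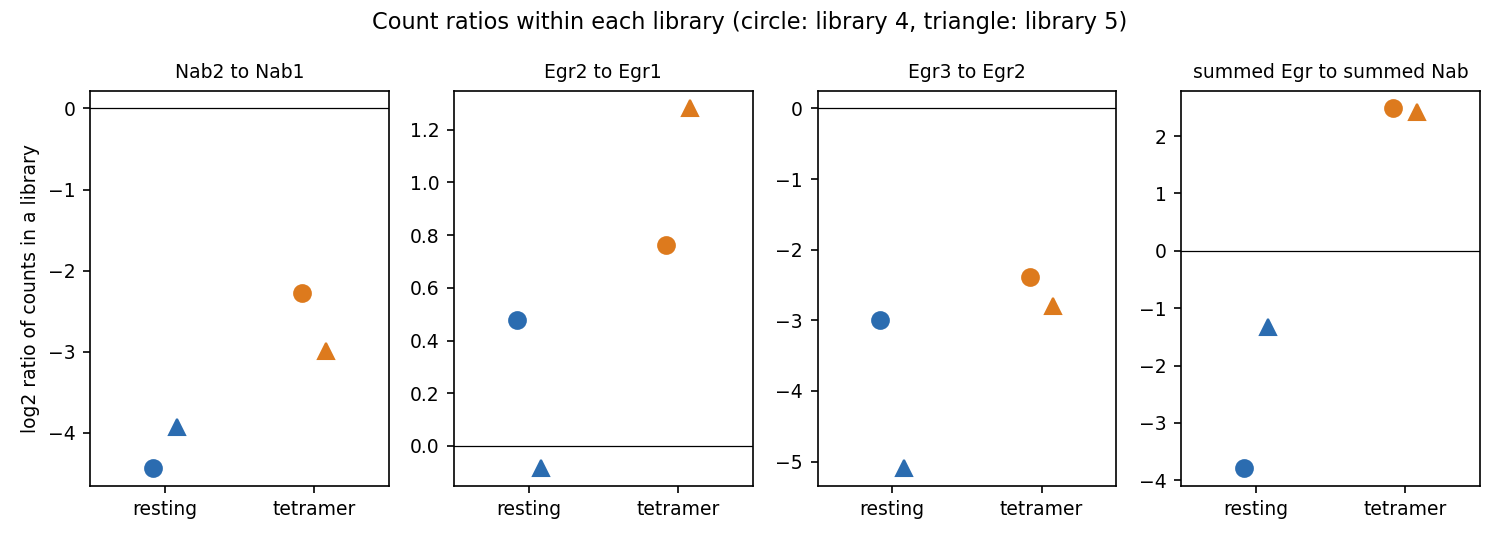
Log2 ratio of counts within each library (y axis, 1 panel per ratio, own scales) for resting (blue) and tetramer (orange) libraries, with circles for library 4 and triangles for library 5. The summed Egr to summed Nab ratio is below 0 in both resting libraries and above 0 in both tetramer libraries, while the Egr3 to Egr2 ratio of resting library 4 lies close to the tetramer libraries.

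Transcripts with the most similar profile over the 4 libraries were taken by the Euclidean distance of centred log2 CPM among 7406 other named genes with a mean of at least 10 CPM. With 4 points this is a description only. Nearest to Egr2 were the neurofilament gene Nefh (distance 0.467) and the ribosome assembly factor Rrp12 (0.499). Nearest to Egr3 were the TNF family ligand Tnfsf8 (0.438) and the EGF receptor ligand Hbegf (0.620). Nearest to Egr1 were Plekho1 (0.333) and the protease inhibitor Serpina3g (0.338), and nearest to Nr4a2 the DNA polymerase subunit Pole3 (0.142) and the nuclear import factor Ipo4 (0.143). Nearest to Nab1 were the channel gene Aqp9 (0.0587), at 22.4 and 9.40 CPM in resting libraries 4 and 5, and Crim1 (0.127). Neither Aqp9 nor Crim1 was called (edgeR adjusted p = 0.146 and 0.0638). Nearest to Nab2 were Vwa9 (0.0429) and the general transcription factor Gtf2e2 (0.0687).

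The shares over all genes, 14.3% called higher and 12.1% lower, are the background for each list below. Of the other immediate early genes, 9 of 19 tested rose and 0 fell, with a median log2 fold change of 1.02. At an unadjusted p below 0.05 in edgeR's test 1 was lower, the antiproliferative gene Btg2. By DESeq2 and the other alternatives the number that fell was also 0, except with library totals, where it was 1. The AP-1 subunit Fosl1 had 4 counts at rest and 99 after stimulation, a scaled ratio of 23.9 with a counting interval of 9.06 to 89.6. Ier3, a survival gene, rose from 2.49 and 2.78 CPM to 27.4 and 33.8 CPM (log2 fold change 3.53 ± 0.57). The stress factor Atf3 rose by 2.83 ± 0.57 on the log2 scale, but its resting libraries were at 2.07 and 10.0 CPM, and the value was 2.12 without resting library 4 and 4.39 without resting library 5. Fos, named here after its values were seen, was at 2.49 and 6.84 CPM at rest and 4.30 and 5.26 CPM after stimulation (0.04, edgeR adjusted p = 0.974). Its groups overlapped, while those of the 3 Egr genes in the same libraries did not.

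Transcripts of the upstream pathways were counted against the same background. Of 19 genes of Ras, ERK and the SRF and ETS factors, 1 rose and 2 fell, with a median of -0.65 against -0.06 over all genes. Both tetramer libraries lay above both resting libraries for 3 of the 19 and below them for 8, against 31.6% and 33.7% of all genes. Hras, a Ras GTPase, had a log2 fold change of 2.86 ± 0.55, the Ras activator Rasgrp1 fell by 1.97 on the same scale, and the ERK kinase Map2k1 changed by -1.53 ± 0.54 (edgeR adjusted p = 0.0366). Rasgrp1 fell from 215 and 162 CPM to 51.6 and 44.7 CPM. The number that fell was 1 without resting library 4, tetramer library 4 or tetramer library 5, where the call of Map2k1 was lost. It was 4 without resting library 5 and 5 with scaling to library totals.

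Of 14 tested genes of calcineurin, NFAT, MEF2 and CREB factors, 2 rose and 2 fell, shares close to the 14.3% and 12.1% of all genes, with a median of -0.14. Nfatc1 rose from 252 and 324 CPM to 679 and 874 CPM (log2 fold change 1.43 ± 0.37), a call lost without tetramer library 5 (adjusted p = 0.0619). Hdac7, a deacetylase that represses MEF2 targets, changed by 1.13 ± 0.37, with adjusted p = 0.0889 in the absence of resting library 5 and 0.277 in that of tetramer library 4. The calcineurin subunit Ppp3cc changed by -2.27 ± 0.50, a call lost without tetramer library 4 (0.0594). With 1 library left out, 4 fell in the absence of resting library 5, 1 in that of resting library 4 or tetramer library 5, and 0 in that of tetramer library 4. The number that rose was 1 without resting library 5, tetramer library 4 or tetramer library 5. Library totals gave 1 higher, with Hdac7 not called (adjusted p = 0.0933), and 4 lower. RLE size factors, DESeq2, limma-voom, no filter and the replicate block each gave 1 lower.

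Of 18 tested genes known as bound or controlled by Egr factors in lymphocytes, 5 rose and 2 fell, and the median of 0.05 was close to that of all genes. Tnf rose from 30.7 and 42.1 CPM to 400 and 632 CPM, and Tnfrsf9, the costimulatory receptor 4-1BB, from 4.56 and 12.2 CPM to 147 and 108 CPM. Their log2 fold changes were 3.83 ± 0.42 and 3.92 ± 0.48, and that of Tnfrsf9 was 4.82 without resting library 5. Crabp2, a retinoic acid binding protein, had 1 count in each resting library, the lowest value in the table, and 60 and 20 counts in tetramer libraries 4 and 5. Its scaled ratio was 38.7, with a counting interval of 10.4 to 325, and its log2 fold change of 5.11 was 4.12 without tetramer library 4. The number of these genes that fell was 1 without tetramer library 4.

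Among 12 tested genes tied to Nr4a factors in T cells, 3 rose and 3 fell, with a median of 0.34. The transcription factor Irf4 rose from 8.29 and 2.99 CPM to 217 and 236 CPM (5.32 ± 0.49), and by 6.25 without resting library 4. The egress receptor S1pr1 fell from 28.8 and 33.8 CPM to 1.43 and 4.05 CPM (-3.50 ± 0.59), and the quiescence factor Klf2 from 120 and 154 CPM to 7.78 and 16.6 CPM (-3.49 ± 0.45). Without tetramer library 5 these falls were -4.42 for S1pr1 and -4.13 for Klf2. The number that fell was 2 without tetramer library 4 and 4 without resting library 4.

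The proteins that Nab and Nr4a factors bind were also examined at the transcript level. Of 13 tested genes of CHD4 and other NuRD subunits, 3 rose and 2 fell, with a median of 0.46. The histone chaperone Rbbp7 changed by 1.56 ± 0.37 on the log2 scale, Gatad2b by 1.51 ± 0.55 and the methyl-CpG binding protein Mbd2 by -1.31 ± 0.40. Each of these calls was lost without at least 1 library, and the number that rose was 0 without tetramer library 4. It was 1 when resting library 4 or tetramer library 5 was left out, and 1 with library totals. The number that fell was 0 without resting library 4 and 1 without tetramer library 4 or 5. Chd4 itself, named after its values were seen, was at 161 and 133 CPM at rest and 276 and 297 CPM after stimulation (0.96, edgeR adjusted p = 0.0486), a call lost when any 1 library was left out (adjusted p from 0.0746 to 0.197). It was also lost with library totals (0.180), no filter (0.0517) and the replicate block (0.0898). Of the 2 RXR genes analysed, which encode partners of Nr4a2, Rxra changed by 1.67 ± 0.48 and was not called without tetramer library 4 (adjusted p = 0.203).

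**Figure D4:**
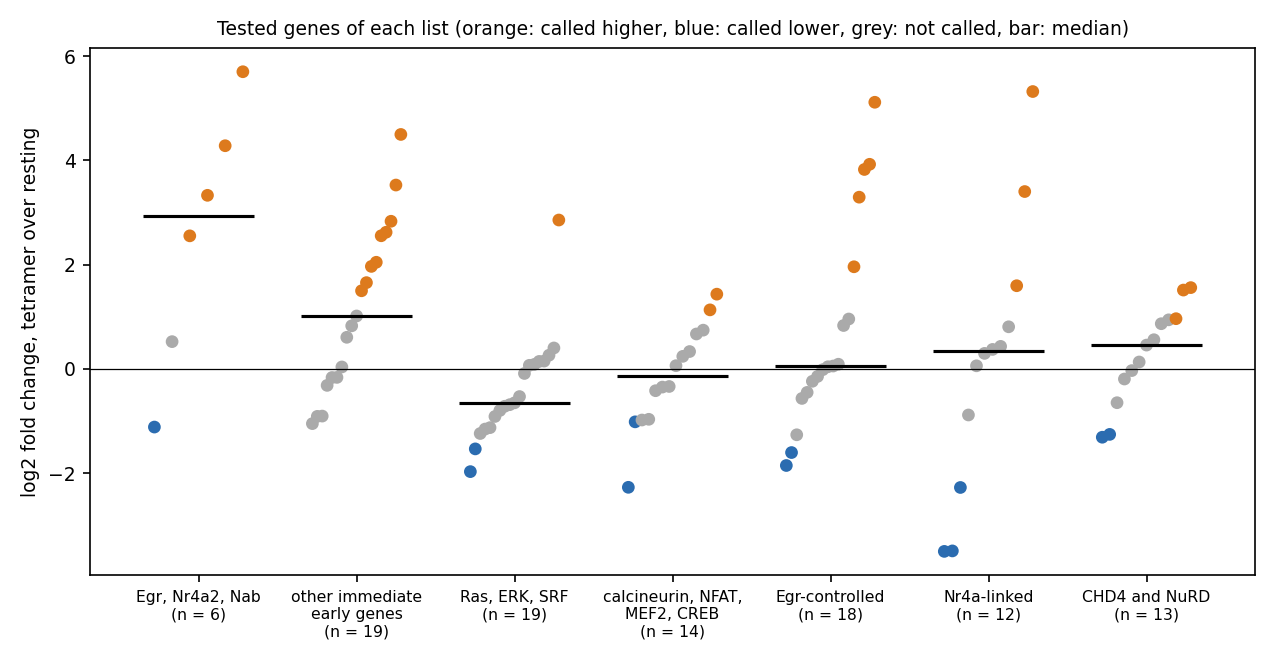
Log2 fold change (y axis, tetramer over resting) of every tested gene of 7 lists (x axis, with n), in orange where called higher, blue where called lower and grey where not called, with a bar at the list's median. The Egr and Nr4a2 points of the first list stand at 2.55 to 5.70. The medians of the lists of upstream, target and NuRD genes lie between -0.65 and 0.46, and that of the other immediate early genes at 1.02.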

How the data were processed

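RNA sequencing libraries of resting (2) and tetramer-stimulated (2) NKT cells were compared. Per the labels' protocols, polyadenylated RNA was copied to cDNA and amplified by PCR. The deposited values are whole-number read counts per gene symbol. Per the submitters' processing notes, Bowtie2, DESeq2 and the build mm9 were used, without versions. The sources used here do not give the counting, its use of strand or any filter. The lowest count in any library is 1, so a gene at 0 in a library is not analysed here. Tmem138 was dropped for a cell that is not a number, which left 12020 genes.

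Counts were tested with edgeR 4.0.16 (R 4.3.3), using the quasi-likelihood F test, default expression filter (11312 genes kept), TMM scaling and Benjamini-Hochberg adjustment over all genes tested, with a threshold of 0.05. Standard errors come from the F statistic. Totals of 4168438 to 5495521 counts leave genes with few reads imprecise, as their intervals show. Alternatives were RLE size factors, library totals, DESeq2 1.42.0, limma-voom (limma 3.58.1), no filter, a filter of 5 CPM in 2 libraries, leaving out each library (the lone library of a group is then assumed to vary like the other group), and the column number as a block. The 6 genes and the lists (other family members, upstream factors, early genes, Egr and Nr4a targets, NuRD and RXR partners, cell type and stress markers) were chosen with earlier results of these data known. Named list genes are up to 3 called with the largest change, or the 2 most abundant markers.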

Additional observations from a re-analysis of the deposited data

How the results depend on the processing

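The rises of Egr1, Egr2, Egr3 and Nr4a2 were called in all 11 alternatives, with log2 fold changes of 2.73 to 4.43, 3.84 to 4.97, 5.34 to 6.25 and 2.15 to 3.15. Nab2 was called in 0, at 0.21 to 0.91. The fall of Nab1, and with it the count of 1 lower gene among the 6, was not called by DESeq2 (0 lower; log2 fold change -1.09, unadjusted p = 0.0158) or limma-voom (0; -1.005, unadjusted p = 0.0221). With single libraries left out the count was 0 to 1 and the value -1.56 to -0.40. Over all genes, single libraries left out gave 622 to 1629 higher and 313 to 1488 lower. Library totals gave 1193 higher and 2250 lower, against 1620 and 1366 with TMM, and moved the median log2 fold change of all genes from -0.06 to -0.35, while the 5 called genes kept their calls. With the column number as a replicate block, 1693 genes were higher, 1468 lower, 4 of the 6 genes higher and 0 lower (Nab1 -1.01, adjusted p = 0.0698). The numbers do not pair the libraries by any label, and deviations of the same number correlated at 0.0486 across genes. All 4 count ratios kept their direction, with 0.5 added to each count too. Directions changed for genes not called with TMM: Fos (-0.23 with library totals, -0.50 without resting library 4, -0.11 without tetramer library 5, up to 0.96 without resting library 5), Il2rb (-0.20 with library totals, -0.38 to 0.47 with single libraries left out), Ins1 (-1.57 to 0.25) and Ins2 (-1.50 to 0.39), the insulin genes being above 0 without resting library 5. Ins1 and Ins2 were called lower with library totals (adjusted p = 0.0347 and 0.0499) and without resting library 4 (0.00427 and 0.00713), where 3 and 4 of the 6 islet markers were lower, against 0 by edgeR with TMM (2 at an unadjusted p below 0.05) and 0 by DESeq2. The cause was not tested. Counts of 6 or fewer at rest limit the fold of Egr3.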
